A study of Mus musculus with 12 samples.

Results

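The 52 genes described here serve cell division: they drive entry into mitosis, build the spindle and the kinetochores, hold the spindle checkpoint, separate the chromosomes and cut the cell apart. They were taken as a list of symbols, and each gene was read from its brightest probe set among those that the platform table pairs with a single symbol. For 51 of the 52 such a probe set was found. All 51 passed the filter on dim signals, which 11176 of the 18193 genes on the array passed. Ccnb1, the cyclin B1 gene, was not matched to a probe set and was not analysed here.

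Thymocytes were sorted from C57BL/6 females of 5 to 6 weeks at 3 successive stages before CD4 and CD8 appear. The gates were CD44+CD25+ for DN2, CD44-CD25+ for DN3 and CD44-CD25- for DN4, after magnetic removal of CD4+ and CD8+ cells and exclusion of cells positive for the gamma-delta receptor, NK1.1, CD3 or either coreceptor. Each of 4 sorts pooled 4 mice (16 in all) and yielded a sample of every stage, so that 12 Affymetrix mouse whole-genome arrays make 3 groups of 4 linked by sort. No gate in the labels used cell size or DNA content, so that a larger share of dividing cells and more transcript per dividing cell cannot be told apart in these pooled samples.

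A cell enters mitosis when the kinase CDK1, bound to cyclins A and B, is switched on by CDC25 phosphatases. Kinetochores then tie chromosomes to spindle microtubules, and the spindle checkpoint holds back the anaphase-promoting complex, a ubiquitin ligase, until every chromosome is attached. In the thymus, cells that have made a working T cell receptor beta chain signal through the pre-T cell receptor at DN3 and divide rapidly on their way through DN4, while DN2 cells divide under the influence of KIT ligand and interleukin 7.

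Levels below are log2 of the quantile-normalized signal plus an offset of 5.56, and differences are on that scale, with standard errors from limma (n = 4 arrays a stage). A gene was called where the Benjamini-Hochberg adjusted p, over the 11176 genes tested, lay under 0.05. The lowest reading of any of the 51 genes at its brightest probe set was 6.58, above the filter level of 4.70. The deposited arrays differed in brightness, with trimmed means between 129 and 233. The sort markers followed their gates: Il2ra, which encodes CD25, read 6.21 to 7.45 in DN4 and 10.18 to 10.59 in DN3, and Cd44 read 5.31 to 6.12 in DN3 and 8.76 to 10.06 in DN2. The p-values measure the spread between sorts of pooled mice, or of stage differences within sorts where the sort is a block. The number of arrays limits their precision.

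Mitotic transcripts were higher in DN4 than in either earlier stage, while the DN3 and DN2 levels were close in the median. Against DN3, 23 of the 51 genes rose in DN4 and 0 fell, where 7.16% of all genes rose and 9.05% fell. The median difference was 0.57 over the 51 genes and 0.046 over all genes, and all 51 differences were above 0. In a fit that keeps the sort as a block, below called the blocked fit, 42 of the 51 rose (15.4% of all genes) and 0 fell (14.9%). Against DN2, 27 rose in DN4 and 0 fell (17.9% and 16.7% of all genes), with a median difference of 0.56 over the 51 genes and 0.061 over all genes. The blocked fit gave 42 that rose against DN2 and 0 that fell, with backgrounds of 24.8% and 21.9%. Both of these comparisons use the same DN4 arrays. Both also rest on normalization between arrays: in the signals as deposited 0 of the 51 passed in DN4 against DN3 and 2 in DN4 against DN2.

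Between DN3 and DN2 the median difference was 0.028 over the 51 genes and 0.019 over all genes. By limma 0 genes rose and 1 fell, against 4.77% and 6.45% of all genes. An unadjusted p under 0.05 in either direction was found for 6 of the 51, and for 2794 of all 11176 genes. In the blocked fit 3 rose (Plk1, Aurka and Prc1) and 2 fell (Ccnb2 and Cdc25b), against 9.98% and 10.9% of all genes. DN3 was higher than DN2 in 4 of 4 sorts for 7 genes and lower for 10, where 21.2% and 20.3% of all genes were. The DN3 samples of Ccnb2 and Cdc25b lay below all of their DN2 samples, as they did for 9.32% of all genes. The order of the stage means was DN2, DN3, DN4 from low to high for 26 genes and DN3, DN2, DN4 for 24, orders that 30.1% and 14.7% of all tested genes had. The remaining gene, Pttg1, had its highest mean in DN2. DN2 and DN3, neighbours in these orders, differed by the test for 1 of the 51.

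**Figure D1:**
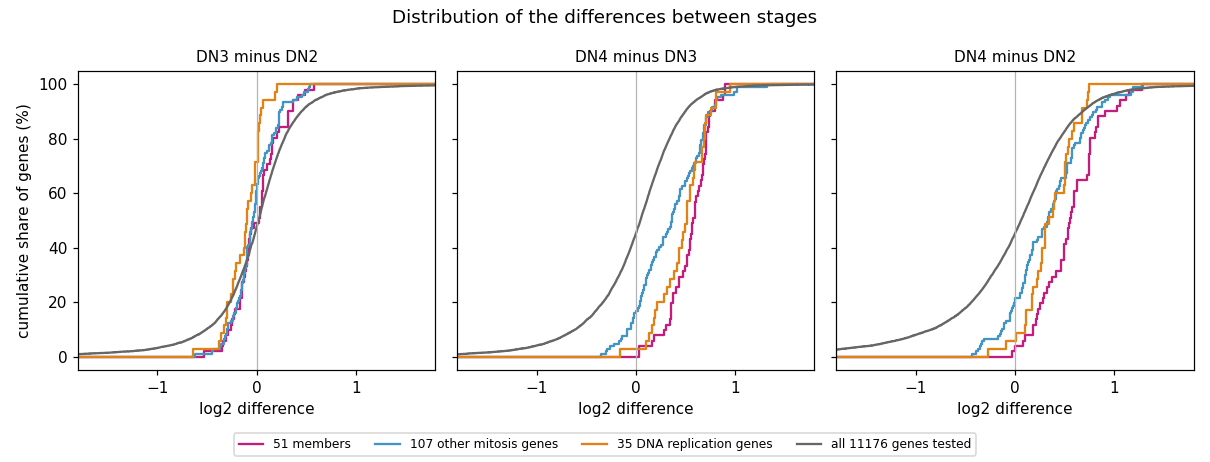
Cumulative share of genes (vertical axis, percent) by log2 difference between stages (horizontal axis) for the 51 genes, 107 other mitosis genes, 35 DNA replication genes and all 11176 genes tested, with a panel for each comparison. In DN4 against DN3 and in DN4 against DN2 the curve of the 51 genes lies to the right of that of all genes over most of its height, with medians of 0.57 and 0.56, and in DN3 against DN2 it crosses the middle near 0 (0.028).

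Single sorts show the same step. DN4 read higher than DN3 in 4 of 4 sorts for 47 of the 51 genes, which 29.3% of all genes did, and the groups did not overlap for 29 of them (12.5% of all genes). Incenp, Smc4 and Pttg1 were higher in 3 sorts and Kif22 in 2. The median over the 51 genes of DN4 minus DN3 was 0.58, 0.71, 0.54 and 0.44 in sorts 1 to 4. Against DN2, DN4 was higher in 4 of 4 sorts for 42 genes (31% of all genes), with no overlap for 24 (17% of all genes), and the medians were 0.74, 0.79, 0.41 and 0.35. For DN3 minus DN2 the medians were 0.13, -0.0050, -0.15 and -0.051. The difference from DN2 was thus larger in sorts 1 and 2 than in sorts 3 and 4, while the difference from DN3 was of similar size in all 4.

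Many genes of this kind carry 2 short promoter elements close to their start: CCAAT boxes, which the factor NF-Y binds, and the cell cycle genes homology region, whose core letters TTTGAA are bound by complexes of the MuvB family. RefSeq promoters of GRCm38.p6, from 250 bases before to 50 after each transcription start, were found for 44 of the 52 genes in 47 windows (Aurkb, Ccna2, Cdc25c, Incenp, Kif20a, Smc4, Spc24 and Tpx2 are not in the table used). The letters TTTGAA were present on either strand in 35 of 47 windows, 74.5%, against 17.9% of 32851 promoter windows of the same length. CCAAT was present on either strand in 36 of 47, 76.6%, against 37.4% of all windows. Both occurred in 66.0% of the windows, against 6.95% of all. TTTGAA lay within 50 bases of the start in 66.0%, against 4.94% of all. A match of letters is a description of the sequence and does not show that a factor bound there.

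The windows below are shown because they belong to genes of different roles whose readings are given further on, among them Cdca8, where the elements overlap. They run 5′ to 3′ on the gene's strand, from 100 bases before to 50 after the start, and capitals mark TTTGAA and CCAAT or their reverse complements TTCAAA and ATTGG. The regions are chr9:70421505-70421654 (minus strand) for Ccnb2, chr2:164769829-164769978 (plus) for Ube2c, chr7:122159335-122159484 (plus) for Plk1, chr4:124936868-124937017 (minus) for Cdca8, chr1:189688037-189688186 (minus) for Cenpf, chr19:37376282-37376431 (plus) for Kif11, chr15:99651607-99651756 (minus) for Racgap1, chr15:102296193-102296342 (plus) for Espl1 and chr11:43425932-43426081 (minus) for Pttg1.
Ccnb2: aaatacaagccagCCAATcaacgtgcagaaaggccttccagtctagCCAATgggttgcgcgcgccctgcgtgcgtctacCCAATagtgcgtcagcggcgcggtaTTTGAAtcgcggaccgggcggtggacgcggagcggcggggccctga
Ube2c: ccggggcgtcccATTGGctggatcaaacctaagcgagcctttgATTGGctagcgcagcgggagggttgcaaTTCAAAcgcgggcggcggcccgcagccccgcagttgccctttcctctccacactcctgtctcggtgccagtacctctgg
Plk1: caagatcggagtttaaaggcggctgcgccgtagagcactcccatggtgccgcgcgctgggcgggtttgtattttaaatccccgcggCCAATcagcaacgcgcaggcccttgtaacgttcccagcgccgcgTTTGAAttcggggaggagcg
Cdca8: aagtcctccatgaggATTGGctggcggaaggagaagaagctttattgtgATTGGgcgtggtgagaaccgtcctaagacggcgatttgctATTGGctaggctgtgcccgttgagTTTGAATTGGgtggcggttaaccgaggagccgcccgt
Cenpf: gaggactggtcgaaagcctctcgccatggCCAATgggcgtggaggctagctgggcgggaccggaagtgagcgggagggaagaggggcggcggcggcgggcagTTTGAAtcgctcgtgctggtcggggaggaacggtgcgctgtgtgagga
Kif11: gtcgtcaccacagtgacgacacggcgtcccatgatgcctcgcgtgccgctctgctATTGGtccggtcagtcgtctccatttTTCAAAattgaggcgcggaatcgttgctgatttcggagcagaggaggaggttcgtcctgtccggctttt
Racgap1: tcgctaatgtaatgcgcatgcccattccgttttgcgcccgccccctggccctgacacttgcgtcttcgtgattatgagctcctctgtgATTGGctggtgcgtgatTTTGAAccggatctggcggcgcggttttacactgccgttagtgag
Espl1: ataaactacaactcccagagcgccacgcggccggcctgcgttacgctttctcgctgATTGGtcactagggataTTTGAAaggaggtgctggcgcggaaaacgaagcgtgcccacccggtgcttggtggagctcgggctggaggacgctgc
Pttg1: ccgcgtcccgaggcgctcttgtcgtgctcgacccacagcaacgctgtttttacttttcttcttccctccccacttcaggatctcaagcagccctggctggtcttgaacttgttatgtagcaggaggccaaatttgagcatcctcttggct

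Counting the start as 0, TTTGAA begins at 4 in Ccnb2, 2 in Cenpf, 5 in Racgap1 and 30 in Plk1, at -27 in Espl1, and on the reverse strand at -29 in Ube2c and -19 in Kif11. The nearest CCAAT lies upstream of it in these 7 windows, at -21 in Ccnb2, -71 in Cenpf, -14 in Plk1 and, on the reverse strand, -12 in Racgap1, -44 in Espl1, -45 in Kif11 and -57 in Ube2c. In Cdca8 TTTGAA begins at 13 and the nearest CCAAT, on the reverse strand at 18, lies downstream and shares a base with it. Taking the TTTGAA closest to the start, the nearest CCAAT lay upstream in 27 of the 31 windows of the mitosis genes with both (87.1%), against 48.91% of 2284 such windows in the whole table. The window of Pttg1, the securin gene, holds neither. Of the 43 tested genes with a promoter in the table, 28 had both elements, of which 13 rose in DN4 against DN3 (23 in the blocked fit). Of the 4 with TTTGAA alone 1 rose, with a median difference of 0.61, and of the 4 with CCAAT alone 3 rose, with 0.71. In the blocked fit 4 of 4 passed in each. Of the 7 with neither (Birc5, Mad2l1, Ncaph, Nuf2, Nusap1, Plk4 and Pttg1) limma called 0, while 4 had an unadjusted p under 0.05 and 5 passed in the blocked fit. The median differences were 0.57 with both elements and 0.44 with neither. Among genes in no mitosis or replication list, 7.81% of 576 with both elements rose and 5.96% of 4480 with neither, near the 7.16% of all genes.

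**Figure D2:**
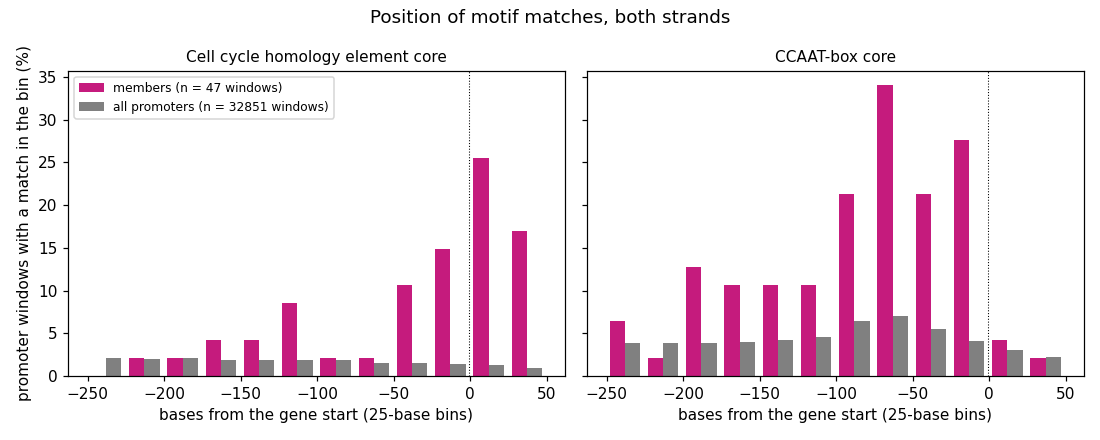
Share of promoter windows that hold TTTGAA (left) or CCAAT (right) on either strand, by 25-base bin of distance from the transcription start, for the 47 windows of the mitosis genes and for all 32851 windows. In the mitosis genes the TTTGAA bars are tallest in the bin that begins at the start (25.5% of windows), and those of all windows are lower there.

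All 6 measured genes of mitotic entry rose in DN4 against DN3, by a median of 0.71, and 4 of 6 rose against DN2. For the counts by role here and below, the shares of all genes that rose were 7.16% and 17.9%. In the blocked fit they were 15.4% and 24.8%. Cdc25c, a phosphatase that activates CDK1, read 7.19, 7.12, 7.42 and 7.47 in DN2, 7.26, 6.65, 6.86 and 7.07 in DN3 and 8.04, 7.64, 7.86 and 7.89 in DN4. Every DN4 sample was above all samples of the other stages, and the lowest reading was DN3 of sort 2. The difference of DN4 from DN3 was 0.90 ± 0.15 (1.86-fold, adjusted p = 0.00219) and from DN2 0.56 ± 0.15 (adjusted p = 0.0127). Ccnb2, which encodes cyclin B2 and whose promoter is shown above, read 10.75, 10.50, 10.71 and 10.85 in DN2, 10.14, 9.76, 10.36 and 10.42 in DN3 and 11.14, 10.81, 11.23 and 11.03 in DN4. The DN3 samples lay below all DN2 and all DN4 samples, and of the DN4 samples only that of sort 2 fell within the DN2 range. Ccnb2 fell in DN3 against DN2 by 0.53 ± 0.16 (adjusted p = 0.0489), a call lost without any one of 9 arrays (adjusted p between 0.0422 and 0.116 over the 12 omissions). It rose in DN4 against DN3 by 0.88 ± 0.16 (1.84-fold, adjusted p = 0.0033), and against DN2 the difference of 0.35 ± 0.16 passed only in the blocked fit (adjusted p = 0.105, or 0.0173 in the blocked fit).

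Cdk1, the kinase itself, read 9.85, 9.57, 10.07 and 10.15 in DN2, 9.91, 9.49, 10.06 and 10.31 in DN3 and 10.62, 10.48, 10.80 and 10.77 in DN4. DN2 and DN3 overlapped throughout, and all DN4 samples lay above both. It rose by 0.72 ± 0.18 against DN3 (adjusted p = 0.0182) and by 0.76 ± 0.18 against DN2 (adjusted p = 0.00656). Ccna2, the cyclin A2 gene, rose by 0.70 ± 0.15 and 0.75 ± 0.15 in the same comparisons (adjusted p = 0.00849 and 0.00229). Cdca3, whose product promotes the breakdown of the CDK1 inhibitor WEE1, rose by 0.68 ± 0.16 and 0.53 ± 0.16 (adjusted p = 0.0132 and 0.0201). Cdc25b, a further CDK1-activating phosphatase, was lowest in DN3: it read 7.94 to 8.18 in DN3 and 8.37 to 8.44 in DN2, without overlap. Its DN3 difference from DN2 was -0.35 ± 0.11 (adjusted p = 0.0701, or 0.0373 in the blocked fit). In DN4 it rose by 0.56 ± 0.11 against DN3 (adjusted p = 0.00659) but not against DN2 (0.21 ± 0.11, adjusted p = 0.174).

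Of the 7 genes of the spindle checkpoint and the cofactors of the anaphase-promoting complex, 3 rose in DN4 against DN3 and 4 against DN2, with medians of 0.56 and 0.63 (5 and 6 in the blocked fit). Ube2c, a ubiquitin-conjugating enzyme that works with the complex, read 9.42, 9.68, 9.86 and 10.14 in DN2, 10.44, 10.12, 10.19 and 10.28 in DN3 and 11.38, 10.76, 10.87 and 10.59 in DN4. Its stage means rank DN2, DN3, DN4, with overlap between DN2 and DN3 through a single pair of arrays and none with DN4. DN4 exceeded DN3 by 0.64 ± 0.19 (adjusted p = 0.0362) and DN2 by 1.12 ± 0.19 (2.18-fold, adjusted p = 0.000704), and the DN3 difference from DN2, 0.48 ± 0.19, did not pass (adjusted p = 0.128). Bub1, a checkpoint kinase at the kinetochore, read 8.91, 8.91, 9.49 and 9.69 in DN2, 9.65, 9.30, 9.45 and 9.85 in DN3 and 10.08, 10.30, 10.17 and 10.56 in DN4. All DN4 samples were above all others, and the DN2 samples of sorts 1 and 2 were the lowest. Bub1 rose by 0.71 ± 0.20 against DN3 (adjusted p = 0.0302) and by 1.03 ± 0.20 against DN2 (2.04-fold, adjusted p = 0.00193).

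Ttk, which encodes the checkpoint kinase MPS1, read 6.93, 6.58, 7.43 and 7.58 in DN2, 7.55, 6.92, 7.33 and 7.61 in DN3 and 8.08, 7.54, 7.87 and 8.29 in DN4. DN4 of sort 2 lay within the range of both other stages, and within each sort DN4 was the highest. The difference from DN3 was 0.59 ± 0.24 (adjusted p = 0.114, or 0.00964 in the blocked fit), and from DN2 Ttk rose by 0.82 ± 0.24 (adjusted p = 0.0201). Bub1b, the gene of BUBR1, an inhibitor of the complex, rose by 0.56 ± 0.16 against DN3 and 0.62 ± 0.16 against DN2 (adjusted p = 0.0296 and 0.00866). Mad2l1, another checkpoint inhibitor, differed by 0.52 ± 0.28 and 0.63 ± 0.28 and passed only with the block (adjusted p = 0.0233 and 0.0062 with it). Cdc20, the activator that the checkpoint holds back, differed by 0.36 ± 0.24 from DN3 (adjusted p = 0.34, or 0.0722 in the blocked fit) and by 0.56 ± 0.24 from DN2 (adjusted p = 0.0947, or 0.00838 in the blocked fit). Bub3, the binding partner of BUB1 and BUBR1, lay between 11.93 and 12.24 on all 12 arrays, and its differences of 0.16 ± 0.10 and 0.078 ± 0.10 did not pass. Its next brightest probe set differed by 0.52 and 0.46 (adjusted p = 0.128 and 0.118 over all probe sets tested). The dimmer ones pointed the other way, and none of these passed.

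The Aurora A, TPX2 and Polo-like kinase genes, which organise centrosomes and spindle poles, had the highest median difference from DN2 of any role. Against DN3 1 of 4 rose (4 in the blocked fit) and against DN2 3 of 4, with medians of 0.63 and 0.88. Plk1, the main mitotic Polo-like kinase, read 7.18, 7.78, 8.27 and 8.36 in DN2, 7.76, 8.34, 8.74 and 9.04 in DN3 and 8.64, 9.23, 9.43 and 9.41 in DN4. Within each sort each later stage read higher, and the DN4 samples were clear of DN2 but overlapped DN3. The difference of DN4 from DN2 was 1.28 ± 0.31 (2.43-fold, adjusted p = 0.00771), the largest of the 51 genes. The steps from DN2 to DN3, 0.57 ± 0.31, and from DN3 to DN4, 0.71 ± 0.31, passed only in the blocked fit (adjusted p = 0.288 and 0.144 without it, 0.00567 and 0.00183 with it).

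Aurka, the Aurora A gene, read 7.98, 7.73, 8.78 and 8.92 in DN2, 8.47, 8.33, 9.00 and 9.25 in DN3 and 9.17, 9.31, 9.72 and 9.80 in DN4. Sorts 3 and 4 were higher than sorts 1 and 2 at every stage, and within each sort the order was DN2, DN3, DN4. Aurka rose by 1.15 ± 0.29 against DN2 (2.22-fold, adjusted p = 0.00924), while its steps of 0.41 ± 0.29 and 0.74 ± 0.29 passed only with the block (adjusted p = 0.433 and 0.104 without it, 0.0386 and 0.00267 with it). Tpx2, which activates Aurora A on microtubules, read 9.09, 9.00, 9.64 and 9.58 in DN2, 9.44, 9.22, 9.47 and 9.37 in DN3 and 10.02, 9.87, 9.81 and 10.01 in DN4. The 4 DN4 samples were the highest, and DN2 and DN3 overlapped. Tpx2 rose by 0.55 ± 0.15 against DN3 (adjusted p = 0.0284) and by 0.60 ± 0.15 against DN2 (adjusted p = 0.00911). Plk4, the kinase of centriole duplication, differed by 0.38 ± 0.25 and 0.29 ± 0.25 and passed only with the block (adjusted p = 0.0145 and 0.0241 with it).

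The chromosomal passenger complex corrects faulty attachments and later moves to the central spindle. Aurkb, its kinase Aurora B, read 8.84, 8.74, 9.55 and 9.78 in DN2, 8.77, 8.71, 9.47 and 9.69 in DN3 and 9.90, 9.86, 10.20 and 10.29 in DN4. DN2 and DN3 ran side by side within each sort, and all DN4 samples lay above both. Aurkb rose by 0.90 ± 0.27 against DN3, 1.87-fold and the largest difference of the 51 genes in that comparison (adjusted p = 0.0429), and by 0.83 ± 0.27 against DN2 (adjusted p = 0.0334). Birc5, which encodes survivin, read 9.46, 9.71, 9.96 and 10.03 in DN2, 10.53, 10.14, 10.07 and 9.89 in DN3 and 10.99, 10.47, 10.56 and 10.35 in DN4. All DN4 samples exceeded all DN2 samples, whereas DN3 of sort 1 lay within the DN4 range. It rose against DN2 by 0.80 ± 0.18 (adjusted p = 0.00518) and its difference from DN3, 0.44 ± 0.18, did not pass (adjusted p = 0.124).

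Cdca8, which encodes borealin, read 11.75, 11.55, 11.91 and 11.97 in DN2, 11.74, 11.55, 11.67 and 11.83 in DN3 and 12.06, 11.84, 12.06 and 11.96 in DN4. The DN4 samples lay just above the DN3 samples and overlapped DN2. The differences from DN3 and DN2 were 0.29 ± 0.12 (adjusted p = 0.122, or 0.0318 in the blocked fit) and 0.19 ± 0.12 (adjusted p = 0.248). Incenp, the scaffold of the complex, differed by 0.18 ± 0.17 and 0.11 ± 0.17, and neither passed (adjusted p = 0.501 and 0.663). The dimmer probe sets of Cdca8 and the next brightest of Incenp gave larger differences. Those of Cdca8 were 0.67 and 0.34 from DN3 (adjusted p = 0.0175 and 0.145 over all probe sets tested) and 0.86 and 0.41 from DN2 (adjusted p = 0.00172 and 0.0496). The next brightest of Incenp differed by 0.45 and 0.43 (adjusted p = 0.0936 and 0.0655). The dimmest of Incenp differed by 0.036 and 0.077 from DN3 and by 0.60 and -0.12 from DN2, and none of these passed. At the brightest probe sets, 1 of these 4 genes rose against DN3 (2 with the block) and 2 against DN2.

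The centromere and kinetochore genes differed by similar amounts. The 8 differences of DN4 from DN3 ran from 0.30 to 0.71 with a median of 0.66. Of these 8 genes 3 rose against DN3 and 3 against DN2, or 7 and 7 in the blocked fit. Cenpe, a motor that brings chromosomes to the spindle equator, read 8.48, 8.11, 8.85 and 8.73 in DN2, 8.43, 8.12, 8.79 and 8.98 in DN3 and 9.22, 9.21, 9.26 and 9.47 in DN4. The DN4 samples lay within a narrow band above all others, and DN2 and DN3 overlapped throughout. Cenpe rose by 0.71 ± 0.20 against DN3 and 0.75 ± 0.20 against DN2 (adjusted p = 0.0313 and 0.0126). Spc24, a subunit of the microtubule-binding NDC80 complex, read 9.24, 9.50, 9.64 and 9.83 in DN2, 9.68, 9.54, 9.56 and 9.74 in DN3 and 10.25, 10.37, 10.34 and 10.24 in DN4. Its DN4 samples were likewise the 4 highest. Spc24 rose by 0.67 ± 0.13 and 0.75 ± 0.13 (adjusted p = 0.00446 and 0.000807), the smallest adjusted p of this group in both comparisons.

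Cenph, a protein of the inner kinetochore, read 7.52, 7.59, 8.43 and 8.50 in DN2, 7.99, 7.52, 7.79 and 8.09 in DN3 and 8.74, 8.30, 8.66 and 8.51 in DN4. DN4 lay above DN3 without overlap, and overlapped the DN2 samples of sorts 3 and 4. Its differences of 0.70 ± 0.23 and 0.54 ± 0.23 passed only with the block (adjusted p = 0.0578 and 0.0903 without it, 0.0251 and 0.0468 with it). The other NDC80 complex genes were close to the threshold: Ndc80 differed from DN3 by 0.62 ± 0.20, Nuf2 by 0.69 ± 0.28 and Spc25 by 0.65 ± 0.23 (adjusted p = 0.0527, 0.118 and 0.075, and 0.0065, 0.00581 and 0.00481 with the block). Cenpf, a large protein of the outer kinetochore with its promoter shown above, rose by 0.57 ± 0.15 against DN3 and 0.42 ± 0.15 against DN2 (adjusted p = 0.0235 and 0.0475), the second of these in 3 of 4 sorts. Cenpa, the histone variant that marks the centromere, differed by 0.30 ± 0.17 and 0.18 ± 0.17, and neither passed (adjusted p = 0.249 and 0.432). At its dimmer measured probe sets, and with the mean of all its probe sets, both differences pointed the other way.

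**Figure D3:**
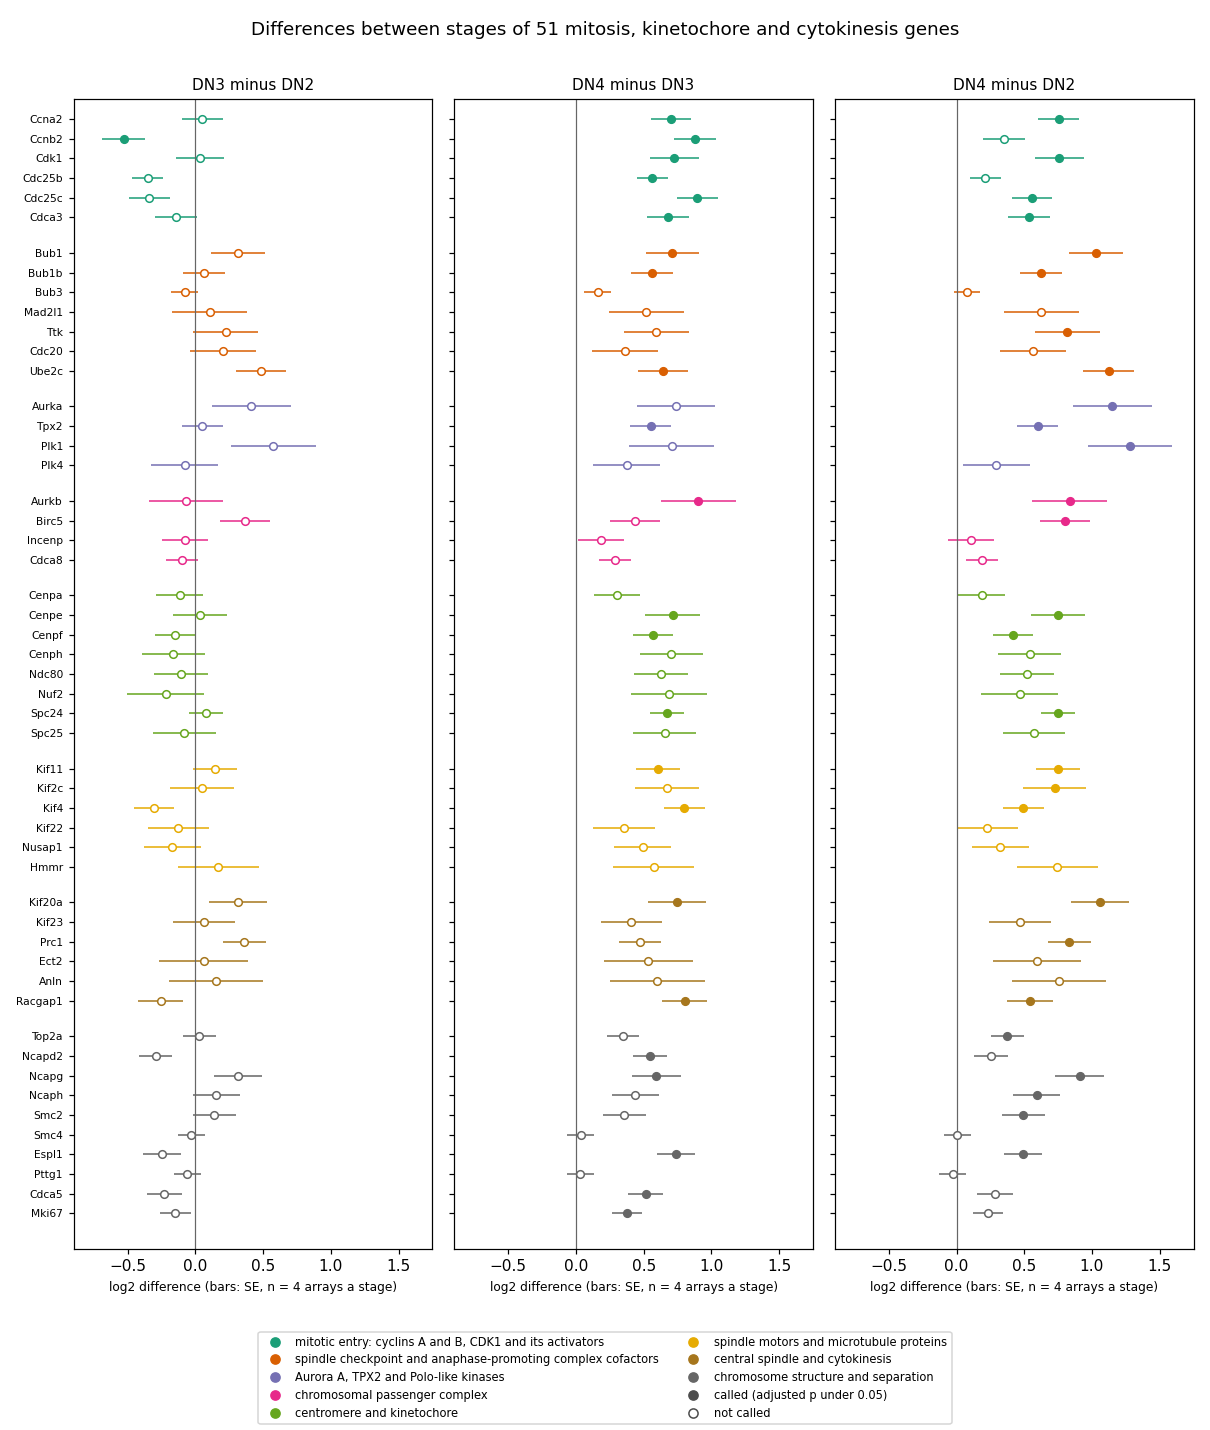
Log2 differences of DN3 from DN2, DN4 from DN3 and DN4 from DN2 (panels from left to right) for each of the 51 genes, coloured by role, with bars of 1 standard error (limma, n = 4 arrays a stage) and filled points for genes with adjusted p under 0.05. All points of DN4 against DN3 lie to the right of 0, from 0.031 for Pttg1 to 0.90 for Aurkb, and Plk1 reaches furthest in DN4 against DN2 (1.28).

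Of 6 spindle motors and microtubule proteins, 2 rose against DN3 and 3 against DN2, or 5 and 5 in the blocked fit. Kif4, a chromosome-bound motor, read 8.17, 7.99, 8.35 and 8.56 in DN2, 8.08, 7.76, 7.76 and 8.25 in DN3 and 8.72, 8.80, 8.66 and 8.87 in DN4. DN3 was the lowest stage in every sort, and the DN4 samples were above all others. Kif4 rose by 0.80 ± 0.15 against DN3 (adjusted p = 0.00428) and by 0.49 ± 0.15 against DN2 (adjusted p = 0.0233). Kif11, the motor that pushes the spindle poles apart, read 8.66, 8.54, 9.11 and 9.08 in DN2, 8.90, 8.71, 9.09 and 9.25 in DN3 and 9.67, 9.42, 9.74 and 9.56 in DN4. DN2 and DN3 overlapped and all DN4 samples were higher. The rises were 0.61 ± 0.16 and 0.75 ± 0.16 (adjusted p = 0.0254 and 0.00388).

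Hmmr, a spindle protein that is also a hyaluronan receptor, read 7.26, 7.02, 8.56 and 8.05 in DN2, 7.63, 7.59, 8.21 and 8.12 in DN3 and 8.30, 8.21, 8.65 and 8.70 in DN4. Sorts 1 and 2 were low in DN2, and DN4 lay just above DN3 and overlapped DN2 through sort 3. Its differences of 0.57 ± 0.30 and 0.74 ± 0.30 passed only with the block (adjusted p = 0.0331 and 0.00694 with it). Kif2c, a motor that shortens microtubules at the centromere, rose against DN2 by 0.72 ± 0.24 (adjusted p = 0.032) and differed from DN3 by 0.67 ± 0.24 (adjusted p = 0.0719, or 0.00226 in the blocked fit). Nusap1, which bundles spindle microtubules, differed by 0.49 ± 0.21 from DN3 and 0.32 ± 0.21 from DN2 and passed only with the block (adjusted p = 0.0123 and 0.0429 with it). Kif22, a motor that pushes chromosome arms, was higher in DN4 in 2 of 4 sorts in each comparison at its brightest probe set, and neither difference passed there (0.35 ± 0.23 and 0.23 ± 0.23). Its dimmer probe sets differed by 0.80 and 0.58 from DN3 (adjusted p = 0.0295 and 0.0936 over all probe sets tested) and by 1.07 and 0.82 from DN2 (adjusted p = 0.00266 and 0.0113).

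Of 6 genes of the central spindle and cytokinesis, 2 rose against DN3 and 3 against DN2, or 5 and 6 with the block. Kif20a, a motor of the central spindle, read 7.71, 7.85, 8.23 and 8.37 in DN2, 8.03, 8.01, 8.58 and 8.80 in DN3 and 8.77, 9.12, 9.15 and 9.37 in DN4. In each sort the order was DN2, DN3, DN4, and DN3 of sort 4 overlapped the DN4 range by a small margin. Kif20a rose by 0.75 ± 0.21 against DN3 (adjusted p = 0.0341) and by 1.06 ± 0.21 against DN2 (2.09-fold, adjusted p = 0.00252). Prc1, which cross-links the central spindle microtubules, read 10.20, 9.52, 10.07 and 10.08 in DN2, 10.27, 10.21, 10.35 and 10.49 in DN3 and 10.93, 10.55, 10.75 and 10.98 in DN4. The 3 stages did not overlap, and it is the one gene of the 51 whose DN3 samples all lay above its DN2 samples (8.12% of all genes). Prc1 rose against DN2 by 0.83 ± 0.16 (adjusted p = 0.00164). Its steps of 0.36 ± 0.16 in DN3 against DN2 and 0.47 ± 0.16 in DN4 against DN3 passed only with the block (adjusted p = 0.177 and 0.0608 without it, 0.0396 and 0.0107 with it).

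Racgap1, a subunit of centralspindlin, read 8.78, 8.36, 8.79 and 9.04 in DN2, 8.27, 8.28, 8.53 and 8.86 in DN3 and 9.17, 9.19, 9.31 and 9.48 in DN4. At this brightest probe set DN3 was the lowest stage in each sort, and all DN4 samples were higher than all others. The difference of DN3 from DN2 was -0.26 there and 0.20 at the other measured probe set, so that its direction depends on the probe set. Racgap1 rose by 0.80 ± 0.17 against DN3 (1.74-fold, adjusted p = 0.00779) and by 0.54 ± 0.17 against DN2 (adjusted p = 0.0255). Kif23, the motor that partners Racgap1 in centralspindlin, differed by 0.41 ± 0.23 and 0.47 ± 0.23 (adjusted p = 0.241 and 0.13), the second past the threshold with the block (adjusted p = 0.0312). Ect2, which activates RhoA at the cleavage furrow, and Anln, the scaffold anillin, differed from DN3 by 0.53 ± 0.33 and 0.60 ± 0.35. Both passed in both comparisons only with the block (adjusted p = 0.0238 and 0.0063 against DN3 with it, 0.00921 and 0.000996 against DN2).

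**Figure D4:**
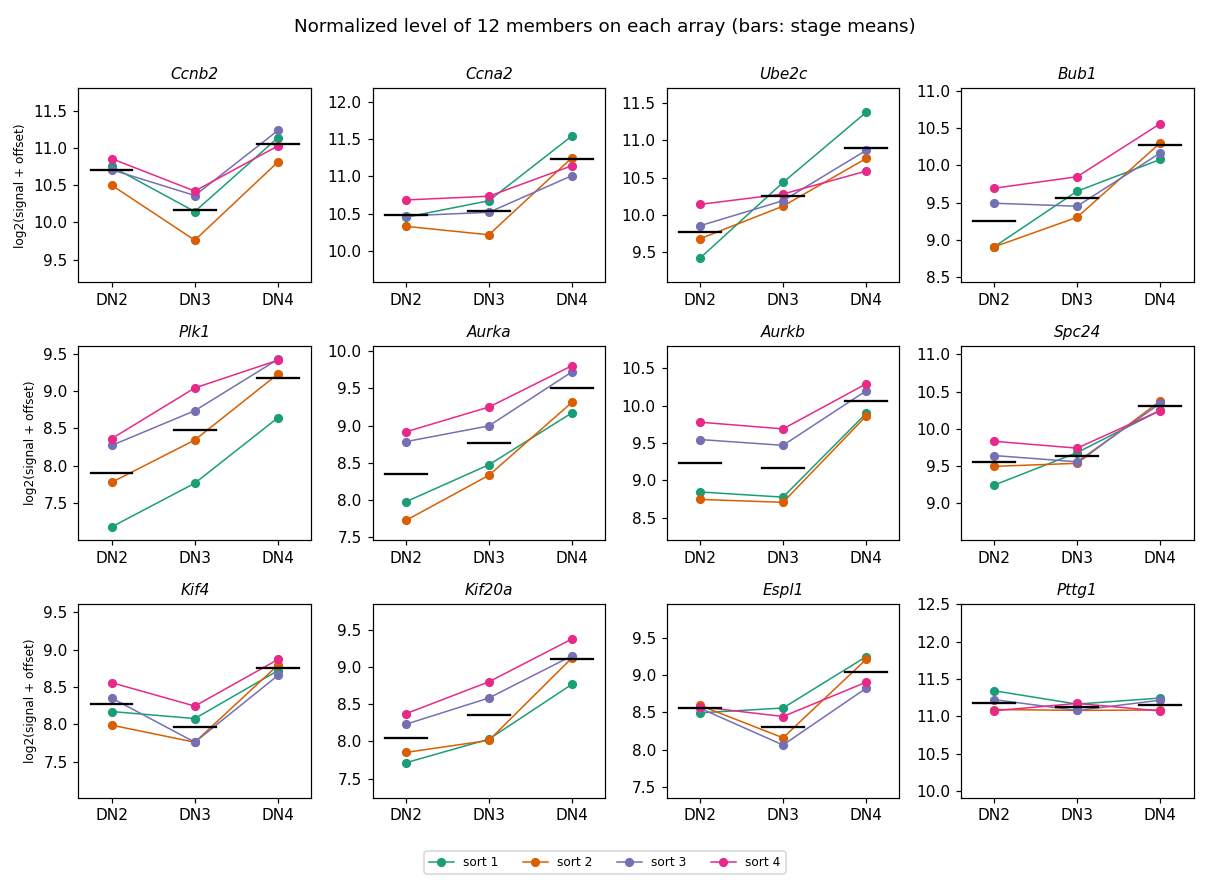
Log2 level of 12 of the genes on each of the 12 arrays, a panel each, with the stages from left to right; a coloured line joins the samples of a sort and black bars are stage means (n = 4). The DN4 points lie highest in most panels, Ccnb2 is lowest in DN3, and Pttg1 stays level.

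The 10 genes of chromosome structure and separation differed in size: 5 rose against DN3 and 5 against DN2 (8 and 7 with the block), while Smc4 and Pttg1 differed from DN3 by less than their standard errors. Ncapg, a condensin I subunit, read 8.35, 8.12, 8.44 and 8.54 in DN2, 8.96, 8.37, 8.46 and 8.92 in DN3 and 9.63, 9.06, 9.04 and 9.36 in DN4. The DN4 samples exceeded all others, and DN3 was above DN2 within each sort. Ncapg rose by 0.59 ± 0.18 against DN3 (adjusted p = 0.0406) and by 0.91 ± 0.18 against DN2 (1.88-fold, adjusted p = 0.00213). Espl1, which encodes separase, the protease that cuts cohesin, read 8.50, 8.60, 8.56 and 8.58 in DN2, 8.56, 8.16, 8.06 and 8.45 in DN3 and 9.25, 9.21, 8.83 and 8.91 in DN4. Its DN4 samples were again the 4 highest, with sorts 1 and 2 above sorts 3 and 4. Espl1 rose by 0.74 ± 0.14 against DN3 (1.67-fold, adjusted p = 0.00443) and by 0.49 ± 0.14 against DN2 (adjusted p = 0.0166). Ncaph, another condensin I subunit, read 9.76, 9.81, 10.40 and 10.45 in DN2, 10.16, 10.04, 10.42 and 10.42 in DN3 and 10.61, 10.60, 10.81 and 10.77 in DN4. All DN4 samples exceeded all others by a small margin. It rose against DN2 by 0.59 ± 0.17 (adjusted p = 0.0191), and its difference from DN3 of 0.44 ± 0.17 passed only with the block (adjusted p = 0.105, and 0.015 with it).

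Ncapd2, a further condensin I subunit, rose against DN3 by 0.55 ± 0.12 (adjusted p = 0.0114), and its difference of 0.25 ± 0.12 from DN2 passed only with the block (adjusted p = 0.131, and 0.0462 with it). Cdca5, which encodes sororin, the protector of cohesin, rose by 0.51 ± 0.13 against DN3 (adjusted p = 0.0206), and its difference from DN2 was 0.28 ± 0.13 (adjusted p = 0.114, or 0.0291 in the blocked fit). Mki67, the gene of the proliferation marker Ki-67, rose by 0.38 ± 0.11 against DN3 (adjusted p = 0.0386) and not against DN2 (0.23 ± 0.11, adjusted p = 0.132). Top2a, the topoisomerase that untangles sister chromatids, rose against DN2 by 0.37 ± 0.12 (adjusted p = 0.0306), and differed from DN3 by 0.35 ± 0.12 (adjusted p = 0.0711, or 0.0354 in the blocked fit). Smc2, a core subunit of both condensins, rose against DN2 by 0.49 ± 0.16 (adjusted p = 0.0294) and differed from DN3 by 0.36 ± 0.16 (adjusted p = 0.145, or 0.0416 in the blocked fit). Smc4, its partner, lay between 12.01 and 12.28 on all arrays, with differences of 0.035 ± 0.10 and 0.0054 ± 0.10 that did not pass.

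Pttg1, which encodes securin, the inhibitor of separase, read 11.34, 11.09, 11.22 and 11.07 in DN2, 11.16, 11.08, 11.08 and 11.17 in DN3 and 11.25, 11.09, 11.22 and 11.07 in DN4 at its brightest probe set. The 3 stages overlapped throughout, and DN4 was lower than DN2 in 4 of 4 sorts by a small margin. Its differences of 0.031 ± 0.10 from DN3 and -0.029 ± 0.10 from DN2 did not pass. The dimmer measured probe sets of Pttg1 differed from DN3 by 0.58 and 0.45, and from DN2 by 0.57 and 0.58 (adjusted p = 0.0411 and 0.0467 over all probe sets tested). The direction against DN2 therefore depends on the probe set, and with the mean of all its probe sets Pttg1 differed from DN2 by 0.37 (adjusted p = 0.0498).

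Probe sets other than the brightest mostly pointed the same way, and the calls depended on the choice for some genes. For 33 of the 51 genes a further 58 probe sets passed the filter, of which 51 were above 0 in DN4 minus DN3, with a median of 0.52. Of the 58, 12 passed the test upwards and 0 downwards. The share of all probe sets that passed is not given here, so that these counts have no background to be read against. Of the genes not called at the brightest probe set, 5 were called at another against DN3 (Cdca8, Kif22, Kif2c, Ncaph and Nusap1) and 8 against DN2 (Cdc20, Cdca8, Hmmr, Kif22, Nusap1, Plk4, Pttg1 and Spc25). Conversely, 6 genes called at the brightest in each comparison had no other probe set that was called. Bub3 and Cenpa each had a dim probe set that differed by more than 0.5 the other way. Their mean levels, 4.64 and 4.38, were below the filter level, and neither difference passed. A further Cenpa probe set, with a mean level of 6.59, also pointed the other way. It differed by -0.495 from DN3 and -0.319 from DN2 (adjusted p = 0.401 and 0.546). Genes with a brighter probe set differed less: the 9 with a mean level of 11 or above had a median difference from DN3 of 0.29, and the 42 below had 0.62. Over the 51 genes the mean level and the difference correlated at r = -0.69 (Spearman's rho = -0.69). These points share all 12 arrays, and brightness also depends on each probe set's own sequences.

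Whether these differences passed the test depended on normalization between arrays. In the signals as deposited the median over all genes shifted by -0.41 in DN4 against DN3, by -0.29 in DN4 against DN2 and by 0.13 in DN3 against DN2. On that scale the median of the 51 genes was 0.15 in DN4 against DN3, with 44 of 51 above 0 and 0 passing by limma, 0 also at an unadjusted p under 0.05. In DN3 against DN2 0 rose and 0 fell on that scale, where 2.61% and 2.76% of all genes did. In the DN4 against DN3 test 0.357% of all genes rose and 25.3% fell. Against DN2 the median was 0.28, with 46 of 51 above 0, and 2 genes rose, Ube2c by 0.89 and Plk1 by 0.90 (adjusted p = 0.0121 and 0.0412), where 2.56% of all genes rose. Taken relative to the shift of all genes, the medians were 0.56 and 0.57, close to those after normalization, and every one of the 51 relative differences was above 0. The lowest of these, 0.13 and 0.098, belong to Pttg1 and Cdc25b. The rises after normalization are therefore relative to the bulk of the transcripts, and the amount per cell was not measured.

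Averaged over the 51 genes, the normalized level was 9.47, 9.39, 9.87 and 9.95 in DN2 of sorts 1 to 4, 9.66, 9.42, 9.72 and 9.90 in DN3, and 10.19, 10.14, 10.28 and 10.31 in DN4. All DN4 samples lay above all others, and the DN4 samples lay closest together (SD 0.28 in DN2, 0.20 in DN3 and 0.080 in DN4, n = 4 each). As deposited, the average was 9.73, 8.94, 10.09 and 10.02 in DN2, 10.05, 9.50, 9.98 and 9.86 in DN3, and 9.77, 9.87, 10.19 and 10.15 in DN4. Those values overlap between all 3 stages. After subtraction of each array's median, the DN2 samples read 4.47 to 5.29, the DN3 samples 4.76 to 5.20 and the DN4 samples 5.36 to 5.66.

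**Figure D5:**
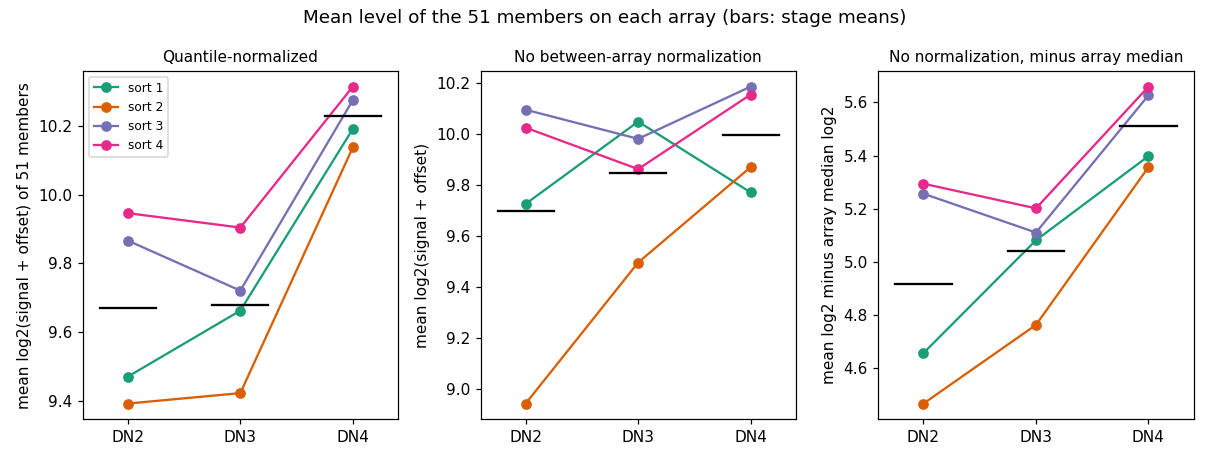
Mean log2 level of the 51 genes on each array by stage, in 3 panels: after quantile normalization, in the signals as deposited, and as deposited minus the array's median; points joined by a line come from the same sort. DN4 stands above the other stages in the first panel (10.14 to 10.31) and in the last, and overlaps them in the signals as deposited.

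The log2 ratio of the 3′ to the 5′ control probe sets of Gapdh, a sign of shortened RNA, was 1.45, 1.82, 1.18 and 1.10 in DN2 of sorts 1 to 4, 0.88, 1.26, 0.92 and 1.09 in DN3 and 1.13, 1.46, 1.02 and 1.02 in DN4. The DN2 samples of sorts 1 and 2, with the highest ratios of that stage, were also the DN2 samples with the lower averages of the 51 genes. At every stage sort 2 had the highest ratio and the lowest normalized average (9.39 in DN2, 9.42 in DN3 and 10.14 in DN4). With this ratio as a covariate beside the sort block, 44 of the 51 genes rose in DN4 against DN3 and 20 in DN4 against DN2, and 0 passed in DN3 against DN2 (against 42, 42 and 5 with the block alone). In that fit 12% and 16.6% of all genes rose in those comparisons, and 3.53% passed in DN3 against DN2. Without DN2 of sort 2, 17 of the 51 rose in DN4 against DN2 (16.5% of all genes). Without DN3 of sort 2, 11 rose in DN4 against DN3 (3.86% of all genes), and without DN4 of sort 4, 13 did (4.36%).

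Markers of other cells moved with the stages. Of 7 double-positive thymocyte genes 5 are on the array, their summed signal was 586 to 1020 in DN4 and 102 to 226 in DN3, and 3 of the 4 tested rose in DN4 (Cd8a, Cd8b1 and Cd2). The mean of Cd8b1 in DN3, 4.51, was below the filter level. Cd4 stayed below the filter level on all 12 arrays. The dendritic cell list summed to 387 to 1033 in DN4 and 303 to 476 in DN3, with 1 of 5 tested genes risen. In the blocked fit 4 rose and the other, Itgax, fell by 0.58 (adjusted p = 0.0453). The means of Itgax in DN3 and DN4 were below the filter level. The highest gene of the dendritic cell list, H2-Aa, read 5.72 in DN4 of sort 1 and 8.28 to 8.68 in DN4 of the other sorts. The B cell list summed to 155 to 225 in DN4 and 204 to 248 in DN3. Of its 3 tested genes, Ms4a1 rose in DN4 by 1.31 (adjusted p = 0.0266), from a DN3 mean of 3.63, below the filter level. Cd79b fell by 0.39 only in the blocked fit (adjusted p = 0.00841). Of 5 erythroid genes 3 are on the array, and they summed to 54.3 to 96.6 in DN4 and 15.8 to 38.7 in DN3. Alas2 alone reached the filter level in DN4, the haemoglobin gene Hba-a1 averaged 3.77 in DN4 and 3.58 in DN3, and 0 of these genes were tested. Myeloid genes (Mpo and Lyz2 among them) summed to 91.0 to 168 in DN4, 155 to 212 in DN3 and 386 to 912 in DN2. Natural killer genes, mainly Nkg7, summed to 89.3 to 115 in DN4, 396 to 715 in DN3 and 1581 to 1831 in DN2. The part of these cells in the differences above was not tested.

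Within a stage, the 51 genes also varied together from sort to sort. After subtraction of stage means, the mean correlation between pairs of them over the 12 arrays was 0.45, against 0.0038 for all genes, 0.35 for 35 DNA replication genes and 0.14 for 107 other mitosis genes. These are descriptions over 12 arrays that share 4 sorts. Spc25, Nuf2, Mad2l1, Nusap1 and Aurka followed the average of the others most closely (r = 0.94 to 0.96). Mki67, Pttg1, Ncapd2, Espl1 and Cdc25b did not follow it (r = -0.079 to 0.046).

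Other genes of mitosis shifted less, and unevenly by group. Of 107 tested, 32 rose in DN4 against DN3 and 0 fell, with a median of 0.36 (50 and 1 in the blocked fit), and 33 rose and 2 fell against DN2, with a median of 0.33. Of all genes, 7.16% rose and 9.05% fell against DN3, and 17.9% rose and 16.7% fell against DN2. In the blocked fit the shares that rose were 15.4% and 24.8%. Among spindle, centrosome and cytokinesis proteins 11 of 27 rose against DN3 (median 0.53), among kinetochore and centromere proteins 10 of 30 (0.38), and among subunits and regulators of the anaphase-promoting complex 5 of 17 (0.21). Of 12 cohesin genes 1 rose, near the share of all genes (6 with the block, and 1 fell). Of 11 genes that restrain CDK1 or control its phosphatases 3 rose, and of 10 transcriptional regulators of mitotic genes 2. DNA replication genes, for comparison, rose in 20 of 35 cases against DN3 (median 0.51) and 14 of 35 against DN2 (median 0.35; 26 with the block).

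The 2 regulators that rose were Mybl2, which encodes the MuvB partner B-MYB, by 0.68 ± 0.17, and Foxm1, a forkhead factor of mitotic genes, by 0.64 ± 0.19 (adjusted p = 0.0193 and 0.0357 against DN3). Pkmyt1 and Wee1, the kinases that inhibit CDK1, rose by 0.81 ± 0.15 and 0.49 ± 0.13 (adjusted p = 0.00376 and 0.0233), alongside the CDC25 genes that oppose them. Pkmyt1 had fallen in DN3 against DN2 by 0.62 ± 0.15 (adjusted p = 0.0171), although the mean of its probe sets differed by 0.063. Mastl, the kinase Greatwall, which restrains the phosphatase that opposes CDK1, rose by 1.02 ± 0.24 (adjusted p = 0.0148). Among the anaphase-promoting complex genes, the subunits Anapc1 and Anapc15 and the conjugating enzyme Ube2s rose by 0.70 ± 0.17, 0.59 ± 0.16 and 0.50 ± 0.14 (adjusted p = 0.0147, 0.0234 and 0.0351). Stag1, a cohesin subunit, rose by 0.41 ± 0.12 (adjusted p = 0.0349).

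At the kinetochore, Zw10, which recruits dynein, and Cenpn and Cenpm, of the constitutive centromere network, rose by 0.62 ± 0.11, 0.81 ± 0.18 and 0.66 ± 0.16 against DN3 (adjusted p = 0.00415, 0.01 and 0.0144). At the spindle poles, the microtubule polymerase gene Ckap5, its partner Tacc3 and Tubg1, the gene of gamma-tubulin, rose by 0.68 ± 0.14, 0.79 ± 0.14 and 0.81 ± 0.14 (adjusted p = 0.00756, 0.00258 and 0.00315). Tubg1 was one of 2 of these 107 genes that rose already in DN3 against DN2, by 0.48 ± 0.14 (adjusted p = 0.0492), and reached 1.29 ± 0.14 in DN4 against DN2 (adjusted p = 3.69e-05). Cdc27, a subunit of the anaphase-promoting complex, and Numa1, a spindle pole protein, were the 2 that fell in DN4 against DN2, by 0.37 and 0.39 (adjusted p = 0.0372 and 0.0214).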

How the data were processed

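The authors' deposited values are linear intensity signals, 1 per probe set and array, which came from Affymetrix GCOS according to the submitters' processing notes. Which release, algorithm and scaling were used is not given in the sources used here. Per the labels' protocols, RNA from sorted thymocytes was amplified through repeated cDNA synthesis and labelled with biotin. The table held 45101 probe sets on 12 arrays; 64 control probe sets were set aside, 34945 carried 1 gene symbol and were used, 932 carried more than 1, and for 9160 the platform table names no gene.

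From the deposited intensities, quantile-normalized log2 values were computed with an offset at the 25th percentile. Each of 18193 genes was read from the brightest of its probe sets, and genes above the table-wide median (log2 4.70) on at least 4 arrays were tested with limma 3.58.1 in R 4.3.3 (lmFit, eBayes, two-sided, Benjamini-Hochberg adjustment over 11176 genes, threshold 0.05). The 3 stage means were fitted together over all arrays. The fit was tested on simulated data. Figures and motif searches used Python 3.11.15, pandas 2.3.3 and matplotlib 3.10.9; promoters are RefSeq's for GRCm38.p6.

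The labels say that equal sample numbers mark cells from 1 sort. Between arrays that share a number, deviations from the stage means had correlations of 0.25 to 0.34, and otherwise of -0.24 to 0.11, 12 of 12 arrays correlated best with their own number, and 0 pairs of arrays were identical. The sort was therefore used as a block in the paired fit.

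The genes and lists were chosen with earlier results of these data known. All genes of the list may be named; per role, up to 3 with the largest difference in any comparison are given array by array, as are any called against their role's direction, and of each other mitosis list up to 3 called genes with the smallest adjusted p of DN4 against DN3. Of the marker lists, the sort markers and up to 3 bright genes may be named. Cdc27, Numa1 and Itgax fall outside this rule and were named after their values were seen. Alternatives were the block, no normalization or median centring, an offset of 1, other filters, the mean of a gene's probe sets, probe sets shared between transcripts left out, only the 8 arrays compared, trend and robust eBayes, pairs of sorts, the Gapdh ratio as a covariate, and each array left out in turn.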

Additional observations from a re-analysis of the deposited data

Results flagged for a closer look

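In 8 of 204 groups of 4 samples tested, 1 sample lay far from the other samples by Dixon's criterion (a gap that takes most of the range), where chance gives about 5%. DN4 of sort 1 was low for Incenp (11.24, the nearest sample at 11.73) and for Kif23 (9.13, nearest 9.65). DN3 of sort 4 was high for Cenpf (9.19, nearest 9.04), and DN4 of sort 4 was high for Smc2 (11.30, nearest 11.11). Among the other mitosis genes, Mybl2 was low in DN2 of sort 3 (7.28, nearest 7.61) and in DN4 of sort 3 (7.84, nearest 8.47), Ckap5 was low in DN2 of sort 3 (7.98, nearest 8.20), and Mastl was high in DN2 of sort 4 (6.50, nearest 5.69). No sort accounts for all of these values.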

How the results depend on the processing

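Of the 51 genes, 0 of those called in a comparison turned direction in it under any alternative run. Among uncalled genes the sign turned for up to 7 in DN4 against DN3 and 4 in DN4 against DN2, both most often without normalization, and for up to 17 in DN3 against DN2 (block with the Gapdh ratio); with 1 array left out, for up to 1, 3 and 9. Pttg1 in DN4 against DN2 (-0.029, not called) passed upwards, at 0.37 with the mean of its probe sets and 0.57 (adjusted p = 0.0326) with shared probe sets left out, and was also above 0 with median centring (0.12), the Gapdh ratio (0.040) and without DN2 of sort 1 (0.025). Among other mitosis genes, Pkmyt1 in DN3 against DN2 was 0.063 with the mean of its probe sets, and Stag1 in DN4 against DN3 was -0.011 without normalization. With the replicate block, which pairs samples by sort, 2331, 3379 and 5224 genes were called in DN3 against DN2, DN4 against DN3 and DN4 against DN2 (1254, 1811 and 3867 without it), and of the 51 genes 3 rose and 2 fell, 42 rose, and 42 rose. With the block and the Gapdh ratio, 395, 2738 and 3548 genes were called in the same order, and 44 and 20 of the 51 rose in DN4 against DN3 and DN4 against DN2. Without normalization 603 and 2877 genes were called, and 0 of the 51 fell, 0 rose, and 2 rose against DN2. In DN4 against DN3, 11 of the 51 rose after median centring (1738 genes called) and 11 with no filter (1128 genes called). With sorts 1 and 2 alone, and so fewer arrays, 249, 217 and 1794 genes were called and 1 of the 51 rose in DN4 against DN3 and 18 against DN2; with sorts 3 and 4 alone, 424, 175 and 2216 genes, with 1 of the 51 risen against DN3 and 11 against DN2. The fall of Ccnb2 in DN3 against DN2 was lost (0 of the 51 fell) with median centring, an offset of 1, no filter, shared probe sets left out, only the 8 arrays compared, either pair of sorts, or the Gapdh ratio, and 2 fell with a filter at the 75th percentile. With each array left out in turn, 0 to 1 of the 51 fell in DN3 against DN2. In DN4 against DN3, 11 to 25 rose (1128 to 1930 genes called, fewest without DN3 of sort 2). In DN4 against DN2, 17 to 30 rose (3206 to 3828 genes called). The totals of genes called in this paragraph count both directions, so that they are not the background of a rise alone. The causes were not tested. Quantile normalization forces equal distributions, so that a shift of most transcripts would not be seen.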
